A study of Homo sapiens with 12 samples.

Results

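The RNA content of whole cell extracts was compared between HEK293T cells given a plasmid for a Halo-tagged stretch of TNIP2, residues 196 to 346, and cells given a plasmid for the Halo tag by itself. HEK293T is a human line of embryonic kidney origin that takes up plasmids readily; the labels name it so, while the culture description says HEK293. The Halo tag is a protein that attaches covalently to a resin and lets a fusion protein be purified. RNA was taken from 100 µl of each extract before any purification, passed over a column and depleted of ribosomal RNA, and these libraries are called Control Input and TNIP2 Input. The comparison uses 6 of the 12 libraries of the series, 3 per construct. It covers 14092 of the 25369 genes in the deposited table, namely those with a normalized count of at least 10 in at least 3 of the 6 libraries. Of the genes left out, 5034 had a value of 0 in all 6. At the border of this filter, 121 genes had a third-highest value of exactly 10 and were kept, and 119 had 9 and were not.

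All 6 libraries come from transfected cells, so every value is one construct against the other, and untransfected cells were not analysed here. The promoter of the plasmids, the time after transfection and the share of cells that took them up are unknown from the sources used here. In bulk RNA of this kind a difference in the number of expressing cells and a difference in RNA per cell cannot be told apart. Nothing in the labels says that the 3 libraries of a group came from separate transfections, so a p-value reflects how far these libraries scatter, and that scatter may be technical. The column letter of the TNIP2 construct was assigned by elimination, since the other letters match the tag-only control, Input and Pulldown.

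TNIP2, also called ABIN-2, is an adaptor protein. It binds ubiquitin chains and the deubiquitinase A20, encoded by TNFAIP3, and holds the kinase TPL-2, encoded by MAP3K8, in a complex with p105, the product of NFKB1. In other settings it is known to restrain NF-kB signalling and to keep TPL-2, an activator of the ERK kinase pathway, stable. NF-kB factors are held in the cytoplasm by I-kappa-B proteins until a signal leads to the breakdown of those inhibitors. Genes such as NFKBIA and TNFAIP3, which are NF-kB targets and feed back on the pathway, are then transcribed. Comparing the extracts asks how far the cells' own RNA differed between the constructs before anything was purified.

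The TNIP2 gene itself was the only one of the 14092 genes tested that passed the threshold, 0.00710% of them. Its normalized counts were 278, 304 and 272 in Control Input. With the fragment they were 16750, 13318 and 46568. The groups lay far apart, and the third TNIP2 Input library held more TNIP2 RNA than the first and the second together. The log2 fold change was 6.26 (SE 0.57; limma, adjusted p = 2.76e-04), or 76.5-fold with a 95% interval from 32.9 to 178. Over the Control Input mean the 3 TNIP2 Input libraries stood 58.8-, 46.8- and 164-fold higher.

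Per length of transcript, TNIP2 reached an FPKM of 722, 574 and 2007 with the fragment and 12, 13.1 and 11.7 with the tag alone. FPKM normally scales a read count by exon length and library depth. The deposited FPKM equals the normalized count divided by a constant per gene, so it carries the same scaling between libraries. By this level TNIP2 ranked 5699, 5350 and 5826 among all genes in Control Input, a middling transcript, and 83, 90 and 22 in TNIP2 Input. The FPKM divides by 2039 bases, the exonic length recovered for the whole gene, while the plasmid carries only part of the coding sequence, so the level of the plasmid transcript is understated. Reads of the cell's own TNIP2 transcript and of the plasmid are summed in these values. TNIP2 took 0.160%, 0.131% and 0.434% of all reads in TNIP2 Input. Without the third TNIP2 Input library the log2 fold change was 5.71, and without the second it was 6.61.

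No gene was called lower, and none other than TNIP2 was called higher. At an unadjusted p under 0.05 there were 98 genes, 0.695% of those tested, of which 51 (0.362%) were higher and 47 (0.334%) lower. When no gene differs, a calibrated test puts a share of 0.05 below that threshold on average, so these p-values look cautious. A missing call therefore does not show that the RNA was equal. The reason for the low share was not tested. The fitted spread came from all 12 libraries. With the 6 Input libraries alone 318 genes had an unadjusted p under 0.05, and again TNIP2 was the only call. A fit that weighted libraries by their estimated scatter made 1965 higher and 1869 lower calls, but it gave the first TNIP2 Input library 138 times the weight of the third, and the estimate of the weights raised 1 warning.

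The log2 fold changes of all other genes lay in a narrow band. The middle 50% ran from -0.13 to 0.11, and the 1st and 99th percentiles were -0.54 and 0.58. Of them only 21 differed by 2-fold or more, and 17 of these had a mean normalized count under 30. The median 95% interval reached 0.47 on the log2 scale to either side of the estimate, a factor of 1.38. For 12155 genes, 86.3%, the whole interval lay within a 2-fold change in either direction. This share was 30.5% for genes with a mean under 30 and 99% for those from 1000 to 3000, so the comparison resolves abundant transcripts well and faint ones poorly. The SD of the log2 fold changes, leaving out TNIP2, was 0.21, whereas the same contrast in the purified fraction had an SD of 1.13 over the same genes. The genes were filtered on Input alone. Reads recovered for Control Pulldown were 3591129, 6404727 and 4037122, fewer than in any Input library, and for TNIP2 Pulldown 15287408, 29527922 and 10312913. How far depth adds to the wider spread was not tested.

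**Figure D1:**
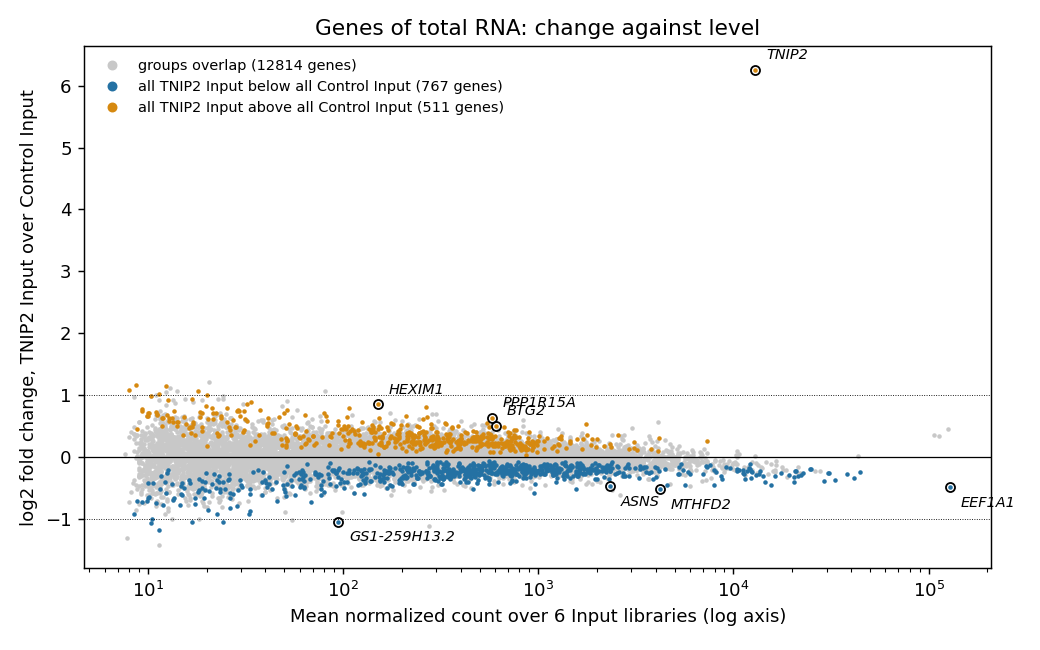
Each point is 1 of the 14092 genes; the horizontal axis is the mean normalized count over the 6 Input libraries on a log scale and the vertical axis is the log2 fold change of TNIP2 Input over Control Input. TNIP2 stands alone at 6.26, dotted lines mark a 2-fold change, and colours mark the 511 and 767 genes with every library of one group beyond every library of the other.

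As a description of the smaller differences, genes were also counted whose 3 TNIP2 Input libraries all lay on one side of all 3 Control Input libraries. There were 511 genes (3.63%) with every TNIP2 Input library above and 767 (5.44%) with every one below, 9.07% together. The counts for gene lists given next are read against these shares. Centring each library on ribosomal protein genes moved the median of all genes tested from -0.01 to 0.14. The list medians from -0.10 to -0.03 in the following paragraphs lay above 0 on that scale, so they mark a place relative to the other genes.

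The libraries differed in depth and in their distance from group mates. The reads recovered per library were 20766756, 13788258 and 16320417 for Control Input and 16745048, 14491970 and 8898474 for TNIP2 Input. The third TNIP2 Input library, the shallowest and the one with the most TNIP2 RNA, stood apart from the rest. In it 1438 genes (10.2%) lay 2-fold or more from the mean of its group mates, against 166 and 311 in the other TNIP2 Input libraries and 34 to 70 in Control Input. On the first principal component, with 60.0% of the variance, it scored -52.5 and the other 5 libraries -6.27 to 24.9. Without it the calls were again 1 higher and 0 lower, and 530 genes had an unadjusted p under 0.05. Of 82 genes followed by name, 39 had a log2 fold change that moved by more than 1.5 times or turned sign without this library, against 11 to 23 when another library was left out. Most of those values are given with and without it.

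The cells matched their label by their markers. Of 12 genes typical of HEK293 cells 11 passed the filter, among them LIN28B, VIM and KRT18, and the summed FPKM of the list was 296 to 315 over the 6 libraries. PAX2 was below the filter. The red cell gene HBB, the T cell gene CD3E and the mature kidney genes UMOD, AQP2 and SLC22A6 were at 0 in all 6. The summed FPKM was 1.86 to 3.54 for blood markers, 1.97 to 3.02 for fibroblast and endothelial markers and 2.62 to 3.91 for mature kidney markers, and the groups overlapped in each.

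The proteins known to bind TNIP2 or to act beside it came first among the gene lists. Of 9 genes 8 were tested and none was called, with a median log2 fold change of 0.06 against -0.01 for all genes tested. It was -0.01 without the second TNIP2 Input library and 0.10 without the third. NFKB1, the gene of p105, read 396, 416 and 386 in Control Input and 397, 407 and 397 in TNIP2 Input. These values overlapped almost fully, with a log2 fold change of 0.00 and a 95% interval from -0.30 to 0.31. MAP3K8, the gene of TPL-2, read 42, 43 and 67 against 58, 60 and 41, a log2 fold change of 0.08 (interval -0.44 to 0.59), or 0.25 without the third TNIP2 Input library. Its groups overlapped as well, at a level where a 1.5-fold difference would be hard to see. TNFAIP3, the gene of A20, read 55, 58 and 56 against 45, 62 and 57 (-0.05, interval -0.51 to 0.40).

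The paralogue TNIP1 showed how one library can set a value. It read 429, 512 and 541 in Control Input and 629, 665 and 359 in TNIP2 Input. The first and second TNIP2 Input libraries lay above all controls and the third below all of them, which left a log2 fold change of 0.11, or 0.39 without the third library. IKBKG, the gene of the ubiquitin-binding subunit NEMO, was the only tested gene of this list whose groups did not overlap, at 208, 201 and 225 against 231, 243 and 257. Its log2 fold change was 0.20 (SE 0.23; limma, adjusted p = 1.00). RIPK1, OPTN and TAX1BP1, which encode a signalling kinase and ubiquitin-binding receptors, had 0.07, 0.05 and 0.02. TNIP3 was below the filter.

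**Figure D2:**
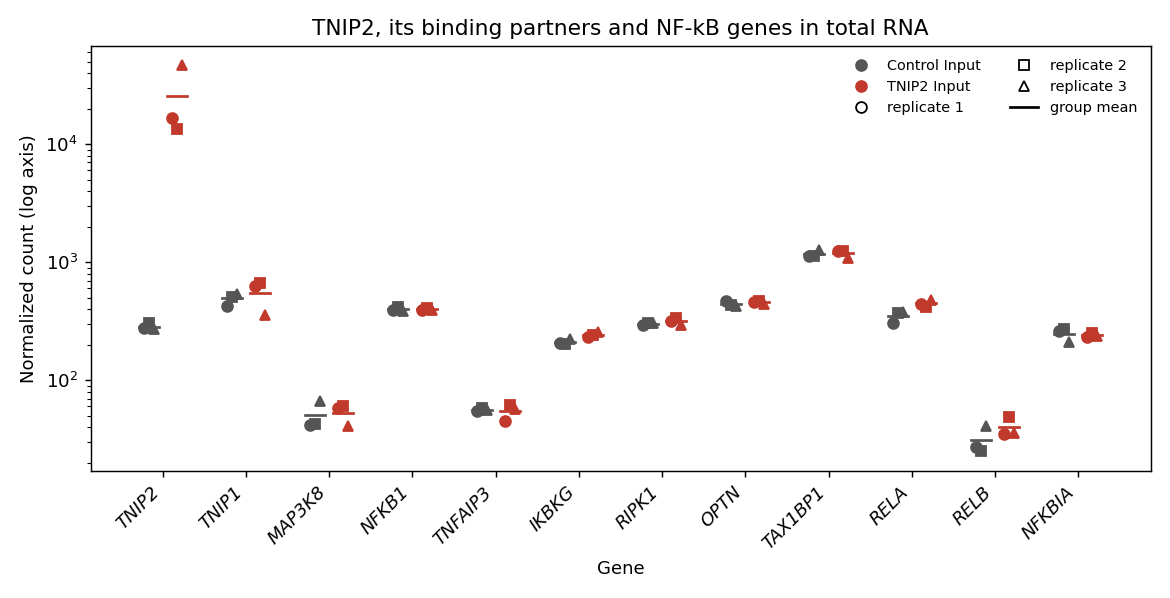
Normalized count on a log axis for TNIP2, genes of proteins that bind it or act beside it, and NF-kB genes in each of the 6 Input libraries. Marker shape gives the replicate number and a bar the group mean. TNIP2 is separated between groups by 46.8-fold or more over the Control Input mean, while the other genes lie at nearly the same height in both groups.

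None of the genes of NF-kB factors and of the I-kappa-B family was called. Of 10 members tested 9 had a log2 fold change above 0, with a median of 0.18. That median was 0.04 without the first Control Input library and 0.06 without the second TNIP2 Input library. The medians of single libraries overlapped between groups, at -0.18, 0.06 and 0.08 in Control Input and 0.09, 0.33 and 0.07 in TNIP2 Input. RELA, the gene of the p65 subunit, read 305, 371 and 379 in Control Input and 443, 421 and 480 in TNIP2 Input. All 3 libraries with the fragment lay above all 3 without it, for a log2 fold change of 0.35 (SE 0.26; limma, adjusted p = 1.00). NFKBIB, an inhibitor, had 0.43 with overlapping groups, and 0.13 without the third TNIP2 Input library. RELB, NFKB2 and REL, the other Rel family genes beside NFKB1, had 0.37, 0.19 and 0.16; without the third TNIP2 Input library NFKB2 and REL had 0.36 and 0.28. NFKBIA, the inhibitor that NF-kB induces, read 260, 273 and 212 against 232, 252 and 235, overlapping throughout (-0.04, interval -0.53 to 0.45). The I-kappa-B family genes NFKBIE, NFKBIZ and NFKBID had 0.16, 0.19 and 0.07, and NFKBIE and NFKBID had -0.18 and 0.25 without the third TNIP2 Input library.

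Among 31 signalling components upstream of NF-kB, 15 lay above 0 and 16 below, with a median of -0.03. The range was -0.23 to 0.68. MAP3K14, the kinase of the alternative NF-kB pathway, had 47, 61 and 76 in Control Input and 109, 98 and 69 in TNIP2 Input, giving a log2 fold change of 0.58 with overlapping groups. IRAK1, a kinase downstream of Toll-like and interleukin-1 receptors, read 2811, 2845 and 2819 against 3098, 3211 and 3833. Those groups did not overlap, at 0.25 on the log2 scale, or 0.16 without the third TNIP2 Input library. MYD88, the adaptor of the same receptors, was near the filter, at 7, 7 and 10 against 19, 15 and 8.

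The transcripts that NF-kB drives had no call, and many were too faint to compare. Of 32 target genes listed, 17 passed the filter and 0 were called, with 10 above 0, 7 below and a median of 0.12 that was 0.02 without the first Control Input library and 0.00 without the third TNIP2 Input library. CXCL8, CXCL1, CCL2, IL6, ICAM1 and VCAM1 did not pass the filter. CCL5, a chemokine gene, read 10, 9 and 8 against 13, 11 and 21 without overlap (0.63, SE 0.54, or 0.38 without the third TNIP2 Input library). BIRC3, which encodes an inhibitor of apoptosis, read 22, 23 and 21 in Control Input and 18, 17 and 65 in TNIP2 Input. Its log2 fold change of 0.30 rested on the third library alone and was -0.31 without it.

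Some of these genes carry the sequence that NF-kB is known to bind just before their start, and a pair of them is shown for that reason. The kB consensus was searched on both strands in the 250 bases before each RefSeq gene start. It was present in 6 of 13 matched targets (46.2%), in 9.57% of all 27305 promoters and in 11.7% of the 10997 tested genes with a match in the table. Printed here are the 120 bases before the start of NFKBIA, at chr14:35404750-35404869 on the minus strand, and of TNFAIP3, at chr6:137867139-137867258 on the plus strand, from RefSeq (GRCh38.p14), with matches to the consensus in capitals.
NFKBIA: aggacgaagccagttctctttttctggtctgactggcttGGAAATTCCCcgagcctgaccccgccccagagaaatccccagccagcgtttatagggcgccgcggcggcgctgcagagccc
TNFAIP3: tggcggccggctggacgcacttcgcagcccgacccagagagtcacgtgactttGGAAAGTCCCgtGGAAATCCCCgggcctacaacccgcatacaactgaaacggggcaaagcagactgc
NFKBIA holds 1 match, starting 81 bases before the gene start. TNFAIP3 holds 2, starting 67 and 55 bases before it. A match describes the letters in the window and does not show that a factor was bound in these cells. Beside these sequences stand the values given above, -0.04 for NFKBIA and -0.05 for TNFAIP3 on the log2 scale.

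Immediate early genes, which cells transcribe within minutes of a growth factor or stress signal, lay almost all on the higher side. Of 37 genes 32 were tested, and 31 of these had a log2 fold change above 0, with a median of 0.34. None was called. In 8 of 32 (25%) every TNIP2 Input library lay above every Control Input library, against 3.63% of all genes, and in 0 of 32 the reverse. The list median of each library, taken as the difference from the Control Input mean, was -0.07, 0.07 and 0.03 in Control Input and 0.20, 0.25 and 0.66 in TNIP2 Input. All 3 libraries with the fragment were therefore above all 3 controls, with the third far above the others. Leaving out each library in turn gave a median of 0.27 to 0.36, and other scalings gave 0.35 to 0.50.

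BTG2, an antiproliferative gene that growth factors and p53 both induce, had the smallest p of this list. It read 478, 515 and 504 in Control Input and 754, 587 and 810 in TNIP2 Input. The groups did not overlap, and the log2 fold change was 0.51 (SE 0.17; limma, unadjusted p = 0.0090, adjusted p = 1.00). JUN, a subunit of the AP-1 transcription factor, read 1799, 1830 and 1784 against 2002, 2079 and 2562, also without overlap, at 0.29, or 0.18 without the third TNIP2 Input library. JUND, another AP-1 subunit, read 359, 534 and 463 against 576, 573 and 553, at 0.35, or 0.19 without the first Control Input library. SRF, the factor that binds serum response elements, read 497, 534 and 518 against 557, 617 and 587, at 0.18. These 4 genes are abundant, so their values rest on many counts in every library, though 1 library still moved JUN and JUND.

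Fainter members had larger and less certain values. FOSB read 4, 10 and 8 in Control Input and 7, 28 and 21 in TNIP2 Input, giving a log2 fold change of 1.12 with a SE of 0.51 and overlapping groups. ZFP36, whose product destabilizes cytokine mRNAs, read 10, 12 and 13 against 16, 19 and 22, with no overlap (0.66). FOSL2, DUSP1 and GADD45B also had no overlap, at 0.65, 0.52 and 0.50; without the third TNIP2 Input library DUSP1 and GADD45B had 0.19 and 0.26. For DUSP1, a phosphatase of MAP kinases, the TNIP2 Input values were 178, 180 and 360 against 164, 154 and 154, so most of the difference lay in 1 library. NR4A3 had 0.71, and IER5 and KLF10 had 0.07 and 0.04. MYC was the one member below 0: it read 938, 1098 and 1192 in Control Input and 1153, 1270 and 426 in TNIP2 Input. Its -0.33 came from the third library and was 0.18 without it.

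Genes that the ERK pathway induces as targets or as feedback inhibitors lay in the same direction. Of 14 tested 13 were above 0, with a median of 0.27 and none called. In 2 of 14 (14.3%) every TNIP2 Input library lay above every Control Input library, against 3.63% of all genes. The medians of single libraries were -0.03, 0.08 and 0.08 in Control Input and 0.15, 0.27 and 0.22 in TNIP2 Input. Here the third library was not the highest, and without it the median was 0.25. ETV5, a transcription factor downstream of ERK, read 13, 12 and 13 against 17, 29 and 37, a log2 fold change of 1.00 (SE 0.38; limma, unadjusted p = 0.018, adjusted p = 1.00). DUSP5, a phosphatase that acts on ERK in the nucleus, read 29, 25 and 34 against 32, 45 and 62, at 0.60 with overlap, or 0.37 without the third TNIP2 Input library. LIF, a cytokine gene, read 149, 159 and 116 against 137, 136 and 499, so that its 0.58 rested on the third library and was -0.04 without it.

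**Figure D3:**
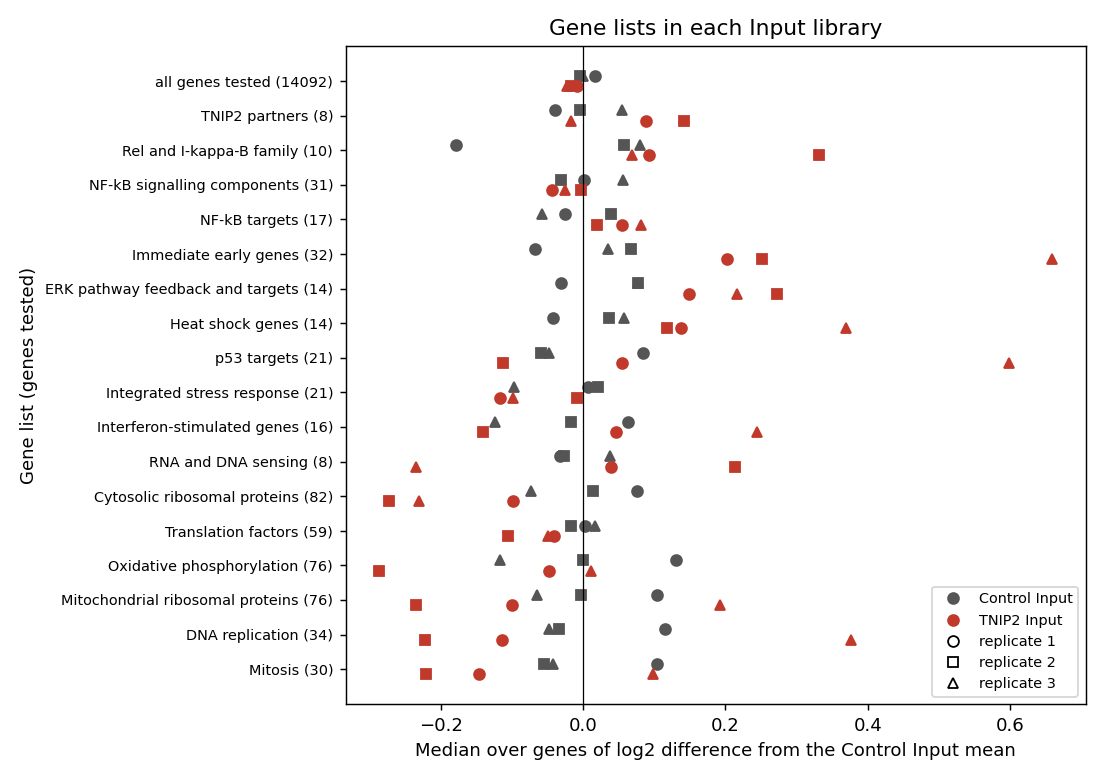
Each row is a gene list with the number of genes tested, and each point is the median over its genes of the log2 difference of 1 library from the Control Input mean. Immediate early genes sit at 0.20, 0.25 and 0.66 in TNIP2 Input and cytosolic ribosomal protein genes at -0.10, -0.27 and -0.23; for p53 targets only the third TNIP2 Input library, at 0.60, departs clearly from the rest.

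Stress programmes were uneven between libraries. Heat shock genes, which encode chaperones of the cytosol and, for HSPD1 and HSPE1, of mitochondria, had 12 of 14 above 0 and a median of 0.25, which was 0.13 without the third TNIP2 Input library. In 5 of 14 (35.7%) every TNIP2 Input library lay above every Control Input library, against 3.63% of all genes, and in 0 of 14 the reverse. HSPE1, the mitochondrial co-chaperonin gene, read 594, 673 and 684 in Control Input and 795, 778 and 758 in TNIP2 Input, giving a log2 fold change of 0.26. BAG3, a co-chaperone of HSP70, read 147, 173 and 154 against 216, 197 and 367 (0.66, or 0.39 without the third library). DNAJA1, DNAJB1 and HSPB8 had no overlap either, at 0.30, 0.25 and 0.74, of which 0.11, 0.14 and 0.36 were left without that library. HSPA1B, an inducible HSP70 gene, read 1461, 1214 and 968 against 1075, 1051 and 2997, high in the third library only, and HSPA6, below the filter, read 97 there and at most 6 in the other 5 libraries.

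Targets of p53, the factor activated by DNA damage, had 17 of 21 above 0 and a median of 0.15. Without the third TNIP2 Input library that median was -0.03. The medians of single TNIP2 Input libraries were 0.05, -0.11 and 0.60. AEN, which encodes a nuclease, read 5925, 4353 and 3646 in Control Input and 4071, 3118 and 9786 in TNIP2 Input. BTG2, given above, TNFRSF10B and BAX departed from this pattern and did not depend on 1 library. They were among the 4 of 21 (19.0%) with every TNIP2 Input library above every Control Input library, against 3.63% of all genes. TNFRSF10B, a death receptor gene, read 1566, 1592 and 1488 against 2032, 1951 and 1980, a log2 fold change of 0.36 (SE 0.14; limma, unadjusted p = 0.023, adjusted p = 1.00). BAX, a pore-forming effector of apoptosis, read 562, 682 and 607 against 799, 790 and 837, at 0.39. For TNFRSF10B and BAX the 3 TNIP2 Input libraries lay close together and above all controls.

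The integrated stress response, in which phosphorylated eIF2 favours translation of ATF4 and ATF4 then drives amino acid genes, had no call in either direction. Of 21 genes 7 were above 0 and 14 below, with a median of -0.10 that was -0.09 to -0.03 with a library left out. In 3 of 21 (14.3%) every TNIP2 Input library lay below every Control Input library, against 5.44% of all genes, and in 2 of 21 (9.52%) above, against 3.63%. ASNS, the asparagine synthetase gene, read 2731, 2660 and 2695 in Control Input and 2190, 2061 and 1630 in TNIP2 Input. All 3 libraries with the fragment lay below, with a log2 fold change of -0.47 (SE 0.14; limma, unadjusted p = 0.0047, adjusted p = 1.00). SLC7A11, the cystine transporter gene, read 1253, 1045 and 1010 against 846, 827 and 774 (-0.43). MTHFD2, a mitochondrial folate enzyme outside the list, read 5334, 4832 and 4579 against 3749, 3635 and 2973 (-0.51). ATF4 itself read 13045, 12707 and 13184 against 10730, 11316 and 12158 (-0.19), also without overlap. PPP1R15A, whose product directs dephosphorylation of eIF2, lay on the other side, at 433, 450 and 431 against 521, 544 and 1105 (0.63, or 0.28 without the third library). So did ATF5, a transcription factor related to ATF4, at 21, 41 and 36 against 48, 47 and 54. Its log2 fold change was 0.64 (SE 0.30; limma, unadjusted p = 0.049, adjusted p = 1.00), or 0.36 without the first Control Input library.

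Interferon responses and nucleic acid sensing showed no common direction. Of 16 interferon-stimulated genes tested 9 were above 0 and 7 below, with a median of 0.03 (-0.02 to 0.14 with a library left out), and 17 of the 33 listed were below the filter. IFNB1 and IFNL1, interferon genes, were at 0 in all 6 libraries. IFITM3, an antiviral membrane protein gene, read 10, 7 and 11 against 21, 12 and 14 without overlap (0.67). The RNA sensors DDX58 and IFIH1 had 0.27 and -0.60, both with overlap, and 0.11 and -0.18 without the third TNIP2 Input library. The chaperones of the endoplasmic reticulum had a median of 0.08 over 20 genes, or -0.03 without the first TNIP2 Input library, and in 0 of them were the groups free of overlap.

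Cytosolic ribosomal protein genes lay mostly on the lower side. Of 88 genes 82 were tested; 74 had a log2 fold change below 0, the median was -0.20 and none was called. In 34 of 82 (41.5%) every TNIP2 Input library lay below every Control Input library, against 5.44% of all genes, and in 0 of 82 above. The medians of single libraries were 0.08, 0.01 and -0.07 in Control Input and -0.10, -0.27 and -0.23 in TNIP2 Input, so the highest library with the fragment lay next to the lowest control. Leaving out each library in turn gave -0.23 to -0.15. RPS3A, of the small subunit, read 35798, 31352 and 31548 against 26818, 24722 and 24348, a log2 fold change of -0.38 (SE 0.14; limma, unadjusted p = 0.018, adjusted p = 1.00). RPL7, of the large subunit, read 24790, 22811 and 22257 against 18071, 17315 and 17653 (-0.40), and RPL13A read 5469, 5355 and 4990 against 4557, 4275 and 2913 (-0.45, or -0.26 without the third library).

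Several limits bear on this group. The median was -0.04 under quantile normalization, which forces one distribution on all libraries, and ribosomal protein genes have many near-identical copies that can share reads. Abundant genes lay low as a class: of the 452 genes with a mean of 3000 or more, 17% were below without overlap, and among the 382 of these that are not ribosomal protein genes the share was 11.5% and the median -0.08. A few members ran against the rest with a wide spread. RPS16 read 147, 758 and 532 in Control Input and 973, 1463 and 269 in TNIP2 Input, giving a log2 fold change of 0.89 with a SE of 0.69. That value was 0.19 without the first Control Input library and 1.61 without the third TNIP2 Input library. Its lowest values were in the first Control Input and the third TNIP2 Input library.

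**Figure D4:**
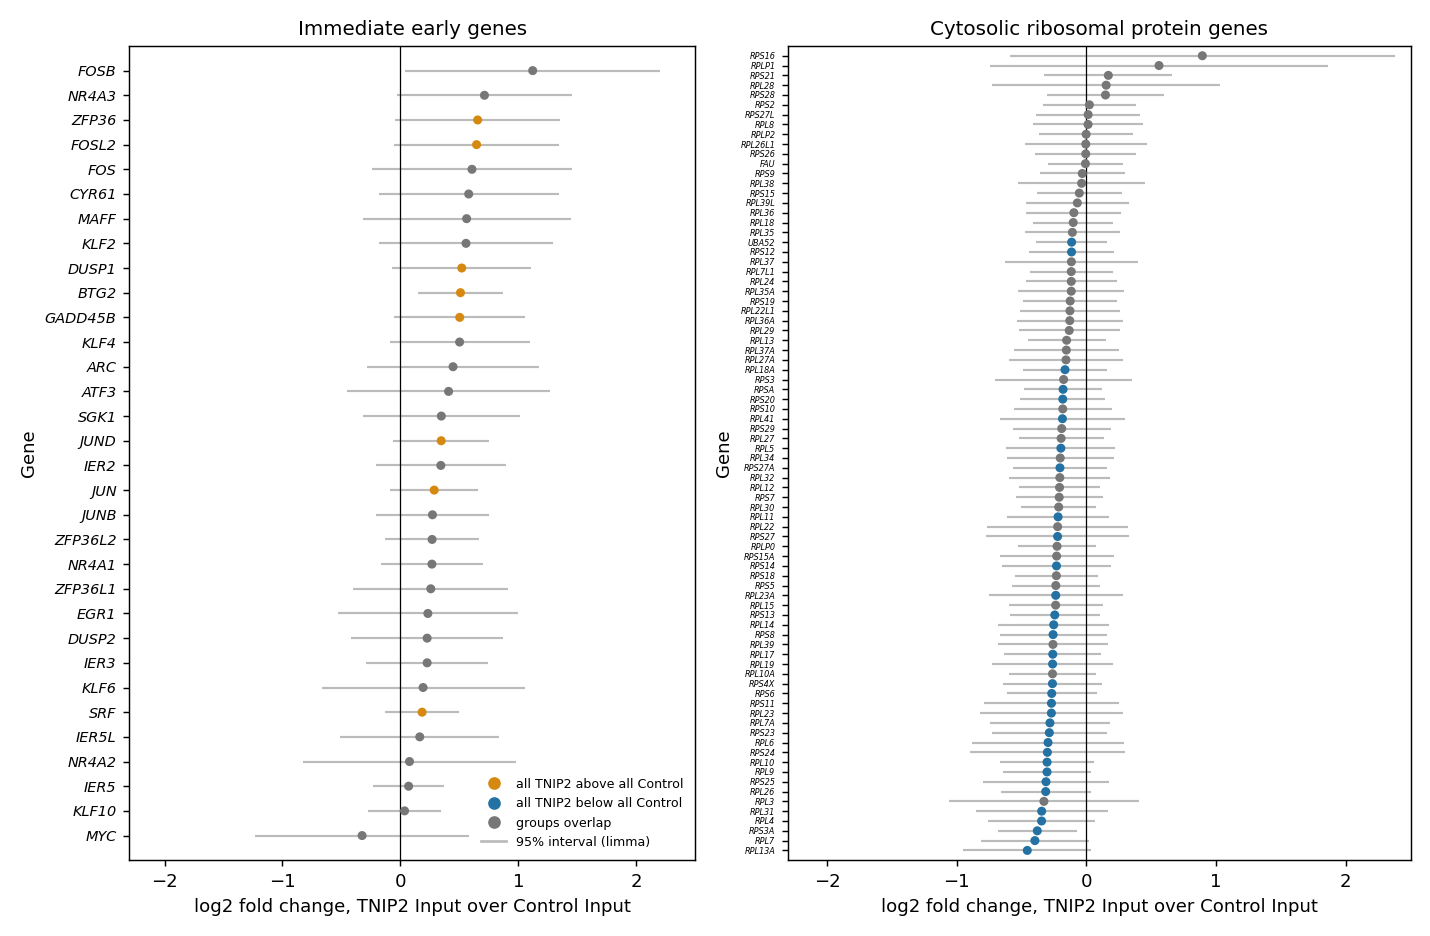
Log2 fold change of TNIP2 Input over Control Input for each tested immediate early gene (left, 32 genes) and cytosolic ribosomal protein gene (right, 82 genes), with the 95% interval of the limma fit. Points lie mostly right of 0 on the left, where MYC is the lowest at -0.33, and mostly left of 0 on the right, where RPS16 is the highest at 0.89; most intervals span 0.

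Other genes of the translation machinery were less even. Of 59 translation factor genes 33 were below 0, with a median of -0.04 that was -0.12 without the third TNIP2 Input library. Below without overlap were 12 (20.3%, against 5.44% of all genes), and above without overlap were 3 (5.08%, against 3.63%). EEF1A1, the elongation factor that brings tRNA to the ribosome and one of the most abundant transcripts here, read 156651, 148649 and 144221 against 121498, 118401 and 84544. The groups did not overlap, at -0.49 (SE 0.19; limma, unadjusted p = 0.020, adjusted p = 1.00), or -0.32 without the third TNIP2 Input library. EIF2A, an initiation factor gene, read 2302, 2072 and 2195 against 1645, 1659 and 1830 (-0.36).

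Transcripts of ribosomal proteins and of EEF1A1 are known to begin with a C and a run of pyrimidines, the 5' terminal oligopyrimidine motif, through which growth signals control their translation. The start sites of EEF1A1, at chr6:73521018-73521047 on the minus strand, and RPS3A, at chr4:151099613-151099642 on the plus strand, are printed to show it (RefSeq, GRCh38.p14). Each line holds 15 bases before and 15 from the annotated start, with the run from the first transcribed base in capitals.
EEF1A1: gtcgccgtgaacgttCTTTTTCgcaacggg
RPS3A: cgactcccacttccgCCCTTTTggctctct
A C followed by at least 4 pyrimidines at the annotated start was found in 43 of 66 matched ribosomal protein genes (65.2%), in 11 of 47 translation factor genes (23.4%) and in 4.04% of all promoters. Ribosomal protein genes with the run had a median log2 fold change of -0.18 and those without it -0.21. Outside this family the 544 genes with the run had -0.04 and the 10387 without it -0.01, with 9.93% and 5.19% below without overlap.

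Genes of energy metabolism, splicing and the cell cycle had no call, and their medians moved with single libraries. Oxidative phosphorylation genes had 62 of 76 below 0 with a median of -0.10, which was -0.01 without the second TNIP2 Input library and -0.18 without the third. Below without overlap were 6 of them (7.89%, against 5.44% of all genes). NDUFA10, a subunit of complex I, read 1116, 1047 and 1005 against 884, 920 and 798 (-0.28). Mitochondrial ribosomal protein genes had a median of -0.05 over 76 genes, or 0.06 and -0.16 without the second and the third TNIP2 Input library. Glycolysis genes had -0.09 over 18, or -0.01 without the third TNIP2 Input library. Below without overlap were 3 of these 18 (16.7%, against 5.44% of all genes). LDHB, a lactate dehydrogenase subunit, read 14058, 12837 and 11739 against 10586, 9814 and 9825 (-0.35). Genes of hnRNP and SR proteins, which bind pre-mRNA, had 25 of 35 above 0 and a median of 0.06, or 0.01 without the first Control Input library. TRA2A, a splicing regulator among them, read 438, 605 and 644 against 715, 841 and 777 (0.48, or 0.31 without the first Control Input library). DNA replication genes had a median of 0.02 that was 0.15 without the second TNIP2 Input library and -0.15 without the third. Mitosis genes had -0.10 over 30, and their median was -0.0032 and -0.18 without the same libraries. Below without overlap were 4 of these 30 (13.3%, against 5.44% of all genes).

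Histone mRNAs and small nucleolar RNAs were compared last among the lists. Of 44 replication-dependent histone genes 30 were below 0, with a median of -0.09 that was 0.02 without the first Control Input library. HIST1H1E, a linker histone gene, read 20038, 17951 and 15557 against 14860, 14292 and 10477 (-0.44, or -0.28 without the third TNIP2 Input library). Box C/D snoRNAs, which guide methylation of ribosomal RNA, had 49 of 72 above 0 and a median of 0.12, or 0.01 without the third TNIP2 Input library. SNORD100 read 15, 9 and 10 against 24, 19 and 24 (0.94), and SNORD38A read 7, 6 and 9 against 16, 20 and 16 (1.15). Both were free of overlap but close to the filter, and both lie within introns of host genes whose reads can overlap theirs. SNORD38A reached 10 in no Control Input library and passed the filter through TNIP2 Input alone. Its higher side and its lack of overlap were therefore fixed by the filter. Box H/ACA RNAs, which guide pseudouridylation, had a median of 0.06 over 61, or -0.01 without the third Control Input library.

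The genes at the ends of the range, among those without overlap and with a mean of at least 100 in the higher group, belonged to no single list. HEXIM1, which holds the elongation factor P-TEFb inactive, read 81, 123 and 117 in Control Input and 187, 254 and 146 in TNIP2 Input, giving a log2 fold change of 0.85 (SE 0.25; limma, unadjusted p = 0.0043, adjusted p = 1.00). NXF1, the main export receptor of mRNA, read 116, 223 and 260 against 299, 370 and 326 (0.80, or 0.45 without the first Control Input library). DUSP8, a phosphatase of stress-activated kinases, read 77, 67 and 76 against 107, 80 and 239 (0.79, or 0.33 without the third library). RFX1, a transcription factor, UTP3, a ribosome biogenesis gene, and KRT10, a keratin gene, each had 0.66. Without the first Control Input library UTP3 and KRT10 both had 0.38.

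On the lower side the uncharacterized transcript GS1-259H13.2 was lowest, at 150, 125 and 105 against 53, 49 and 85. Its log2 fold change was -1.04 (SE 0.30; limma, unadjusted p = 0.0033, adjusted p = 1.00). ZNF277, a zinc finger gene, read 574, 550 and 516 against 401, 389 and 361, tight within each group, at -0.51. ASS1, an enzyme of arginine synthesis, read 1174, 1128 and 1060 against 935, 988 and 451 (-0.58, or -0.22 without the third library). LTA4H, a leukotriene enzyme, and AATK, a kinase gene, had -0.51 and -0.49, of which -0.30 and -0.16 were left without that library. SNORA48 and ZNF573 had -0.60 and -0.57, and SNORA48 had -0.37 without the first Control Input library.

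The same contrast in the purified fraction gives the scale of these values. There 8524 of the same 14092 genes (60.5%) were called between constructs, and 6229 (44.2%) had a construct effect that differed between Pulldown and Input. The fractions share no libraries, and the labels do not say whether same-numbered Input and Pulldown libraries come from one extract. Their deviations from the group means correlated at 0.38, 0.46 and 0.49 for the TNIP2 construct and at 0.08, 0.09 and 0.09 for the control. With each such pair as a block, a fit chosen after the data were seen, the construct effect differed between fractions for 7680 genes (54.5%), of which 6225 were shared with the fit without it. Genes called higher in the Pulldown contrast, 4348 in number, had an Input median of 0.02, and the 4176 called lower had -0.06. Across genes, which are not independent replicates, the Pearson correlation of both contrasts was 0.18. NFKBIA, for which Input gave -0.04, stood at 3.15 in Pulldown, a difference of 3.20 (limma, adjusted p = 5.7e-06). EEF1A1, at -0.49 in Input, stood at -2.05 in Pulldown.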

How the data were processed

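RNA sequencing libraries of HEK293T extracts were analysed as deposited, by gene symbol. Per the submitters' processing notes, TopHat2 2.0.14, DESeq2 1.6.3 and the build hg19 were used; which tool counted reads, whether by strand, and with which annotation is not given in the sources used here. For each gene and library the authors deposited a normalized count, treated here as a score because its values are rounded after scaling, and an FPKM table. Low values of the deposited FPKM were whole multiples of a step, which gave reads per library: 97.1% to 98.5% of the 251 to 1631 low values checked per Input library were whole within 0.1 reads, and 12 of 12 known steps were found on simulated data. A read was worth 0.533 to 1.21 normalized counts.

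Tests used log2(normalized count + 1), a scale on which changes of low genes are understated. A mean per group was fitted over all 12 libraries in limma 3.58.1 (under R 4.3.3; lmFit, eBayes with trend, 8 residual degrees of freedom), two-sided, with Benjamini-Hochberg adjustment over 14092 genes and calls at an adjusted p under 0.05. The code was tested on simulated data. No count model was used. Intervals are 95% intervals of the fit. Pairs of libraries differed beyond sampling noise (chi-square per degree of freedom 7.37 to 51.9), so none was merged. Same-numbered Control Input and TNIP2 Input libraries did not deviate together (correlations -0.11, 0.17 and -0.23 for replicates 1, 2 and 3) and were not paired.

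Comparison, gene lists and named genes were chosen with earlier results of these data known. The 32 lists cover those described, BCL2 family genes (median log2 fold change 0.08), metallothioneins (0.13), cholesterol synthesis (-0.04), other small structured RNAs (-0.13) and nucleus-retained long non-coding RNAs (0.01). Lists are described by counts and medians without a test. Named genes are TNIP2, all members of the lists of TNIP2 partners and of the Rel and I-kappa-B family, the genes with the smallest p in each list, both ends of the immediate early list, and the 10 highest and 10 lowest log2 fold changes among genes without overlap between groups and with a mean of at least 100 in the higher group; unnamed identifiers were passed over, and some genes are not reported here. FOSL2, DUSP1, GADD45B, JUN, JUND, SRF, RPS16, RPL13A, ATF4, ATF5, HSPB8, DNAJA1, DNAJB1, IRAK1, LIF, AEN, HSPA1B, HSPA6, BIRC3 and genes named only for being absent or faint were chosen after their values were seen. Promoter sequences were matched by symbol to RefSeq (GRCh38.p14). Alternatives were other filters, pseudocounts, scalings, the FPKM table, library weights, voom on recovered reads, the 6 Input libraries alone, a replicate block, a block of same-numbered Input and Pulldown libraries (added after seeing the data), and each library left out. The FPKM table shares the library scaling of the normalized counts, so it is no separate check of that scaling.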

Additional observations from a re-analysis of the deposited data

Results flagged for a closer look

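For 39 of 82 tested genes followed by name, the effect of the construct differed between fractions by a test of the difference itself (limma interaction, adjusted p under 0.05). The background is 44.2% of all genes tested. With same-numbered Input and Pulldown libraries of a construct as a block, 47 of 82 passed, all 39 among them, beside 54.5% of all genes tested. Each value is the log2 effect in Pulldown minus that in Input, and the Input effects of these genes ran from -0.60 to 0.85, none of them called. Among TNIP2 partners and NF-kB genes the difference was positive for NFKBIA 3.20, TNFAIP3 2.23, MAP3K8 2.00, NFKB1 1.63 and RELB 1.33 (adjusted p from 5.7e-06 to 0.016). Among immediate early genes it was MYC 3.06, JUN 2.52, NR4A3 1.79, FOSL2 1.49, GADD45B 1.12, JUND 1.06, IER5 1.00, SRF 0.91, BTG2 0.71 and KLF10 0.69 (adjusted p from 4.8e-06 to 0.026). Of the other genes with a positive difference, the values were HSPA1B 2.88, RPL13A 2.46, AATK 1.74, IFIH1 1.72, DUSP8 1.71, BAG3 1.56, LTA4H 1.55, KRT10 1.41, ZNF277 1.32, EIF2A 1.27, PPP1R15A 1.25 and HEXIM1 1.03 (adjusted p from 4.4e-05 to 0.039). Negative differences were NDUFA10 -0.81, DDX58 -0.81, MTHFD2 -0.85, OPTN -0.93, RPS3A -1.0, SLC7A11 -1.01, IKBKG -1.10, ATF4 -1.15, UTP3 -1.26, EEF1A1 -1.56, TRA2A -1.57 and BAX -1.81 (adjusted p from 7.1e-05 to 0.036). IKBKG and OPTN stood on the opposite side from NFKB1, MAP3K8 and TNFAIP3. All of these are on the list of genes whose proteins bind TNIP2 or act beside it. Single outlying samples were not searched for by Dixon's rule, which has little power with 3 libraries per group.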

How the results depend on the processing

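TNIP2 was the only call in every alternative but library weights, with 1 higher and 0 lower; its log2 fold change ran from 5.71 to 6.61 and its adjusted p from 1.5e-13 to 0.017 (5.71 to 6.61 over fits without 1 library). Library weights gave 1965 higher and 1869 lower calls. With the replicate block TNIP2 had 6.26 (adjusted p = 0.017), calls were 1 higher and 0 lower, and 192 genes had an unadjusted p under 0.05; the block changed no other call. Genes with an unadjusted p under 0.05 numbered 28 without the first Control Input library and 530 without the third TNIP2 Input library. Named genes with a difference between fractions numbered 45 of 98, beside 44.2% of all genes tested. Over the alternatives they numbered 36 to 55 of 98, except under the filter of 50 or more, which gave 41 of 75. A block of same-numbered Input and Pulldown libraries, chosen after seeing the data, gave 51 of 98, beside 54.5% of all genes tested. Centring on ribosomal protein genes moved the median of all genes tested from -0.01 to 0.14 and the share above 0 from 46.9% to 79.8%, so oxidative phosphorylation, at -0.10, became 0.06 there. Over 1441 pairs of a named gene and an alternative, 1358 kept sign and side of the threshold, 44 were newly called, all under library weights, and 39 turned sign, all among genes that were not called. These were NFKB1 -0.0069 under quantile normalization, TNFAIP3 0.10 and NFKBIA 0.11 under centring, and NFKB1 -0.042, NFKBIZ -0.16, FOSB -0.19, MYC 0.076, KLF10 -0.020, LIF -0.13, AEN -0.12, HSPA1B -0.15 and BIRC3 -0.30 under library weights; the cause was not tested. Over the fits without 1 library the signs turned for MAP3K8 -0.038 to 0.29, NFKB1 -0.020 to 0.034, TAX1BP1 -0.021 to 0.086, NFKBIZ -0.030 to 0.37, NFKBID -0.13 to 0.25, KLF10 -0.025 to 0.077, NFKBIA -0.15 to 0.029, IER5 -0.014 to 0.13, AEN -0.35 to 0.47, TNIP1 -0.049 to 0.39, TNFAIP3 -0.15 to 0.077, NFKBIE -0.18 to 0.45, MYC -0.61 to 0.18, LIF -0.037 to 0.90, HSPA1B -0.17 to 0.58 and BIRC3 -0.31 to 0.62. Depth limits faint genes: 30.5% of genes with a mean under 30 had an interval within 2-fold.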

Other observations

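The third TNIP2 Input library, the shallowest of the 6, had the most genes at a normalized count of 10 or more, 14345 against 13897 to 14040 in the others. Some genes that are nearly silent elsewhere were seen in it, chosen here after their values were seen. TNF, the gene of the inflammatory cytokine, read 1, 0 and 0 in Control Input and 1, 0 and 10 in TNIP2 Input. LTA, its close relative, read 0, 0 and 1 against 1, 2 and 8. The myeloid surface markers CD14 and ITGAM read 28 and 24 in this library, and at most 8 and 10 in the other libraries. DUSP6 and FOSL1, ERK targets, both read 28 there and at most 9 and 8 elsewhere. A read was worth 1.21 normalized counts in this library, so each of these values stands on few reads, and no test was made.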
